A study of Drosophila melanogaster with 8 samples.

Results

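The early germline differentiation genes examined here are 9 genes that act as a fly germline stem cell becomes a cyst and then an egg chamber: bam, bgcn, mei-P26, twin, Sxl, ovo, otu, stwl and zpg. They were chosen by name, and their deposited transcripts were matched by RefSeq identifier and summed by gene, which gave 9 genes of 18959 genes and transposons in the table, with 53 of the 55 transcripts that the reference lists for them. The material was dissected ovary of Drosophila melanogaster, and RNA was measured in 4 total RNA libraries. Wild type was represented by 2 libraries from the laboratory strain Oregon-R, called wild type 1 and wild type 2. The null genotype was represented by 1 library from the egt17 allele and 1 from the egt8 allele. The series title uses the name boot for the gene and the labels use egt; the labels give no cross, age, transgene or treatment for any group. Small RNA libraries of the same genotypes were not used here. Nothing in the labels ties each library to its own set of flies, so p-values measure only the spread between libraries, and that spread may be technical.

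In the germarium, the anterior tip of the ovary, a stem cell held in its niche by Dpp signalling keeps bam transcription off. Its daughter leaves the niche and makes Bam, which with Bgcn and other RNA regulators lowers the output of stem cell mRNAs such as nanos. The daughter then divides into an interconnected cyst of which a single cell becomes the oocyte. Loss of bam, bgcn, mei-P26, Sxl or otu is known to give tumours of undifferentiated germ cells. A dissected ovary holds germaria together with much larger later egg chambers, and in such bulk RNA fewer cells of a type and less RNA per cell cannot be told apart.

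None of the 9 genes was called different between egt null and wild-type ovaries. Of the 8 that passed the filter (1 FPKM or more in at least 2 libraries; FPKM counts fragments per kilobase of transcript, scaled to library depth), 0 had a limma adjusted p under 0.05, against 0% of all 8755 genes and transposons tested, of which 166 had an unadjusted p under 0.05 and none of the 8 did. With the library pair, described below, as a term in the fit, limma called 13 of the 8755, or 0.148%, and again 0 of the 8. The median difference over all 9 genes was 0.033 on the log2(FPKM + 1) scale, the scale of every difference given here. Over the 8 that passed the filter it was 0.08, beside a median of -0.06 over all genes tested. The differences of the 8 ran from -0.29 to 0.32. Differences between the library pairs were far larger for several of them.

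The libraries stood apart by pair. Depth, read from the value of 1 read in short genes, was 6.32 M reads in wild type 1 and 6.15 M in egt17, against 16.6 M in wild type 2 and 15.9 M in egt8. Across genes, log2 values correlated at 0.966 within the first pair and 0.948 within the second, but at 0.901 between the wild types and 0.876 between the nulls. Genes are not independent replicates, and the labels name no batch. Boot itself, taken to be the mutated gene, was measured at 88.6 and 89.7 FPKM in the wild types, 40.6 in egt17 and 52.1 in egt8, with a limma adjusted p of 0.99992. Germline markers were present in every library: vas, which encodes the germ cell RNA helicase Vasa, stood between 64.5 and 98.9 FPKM, and all 9 germline markers passed the filter.

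**Figure D1:**
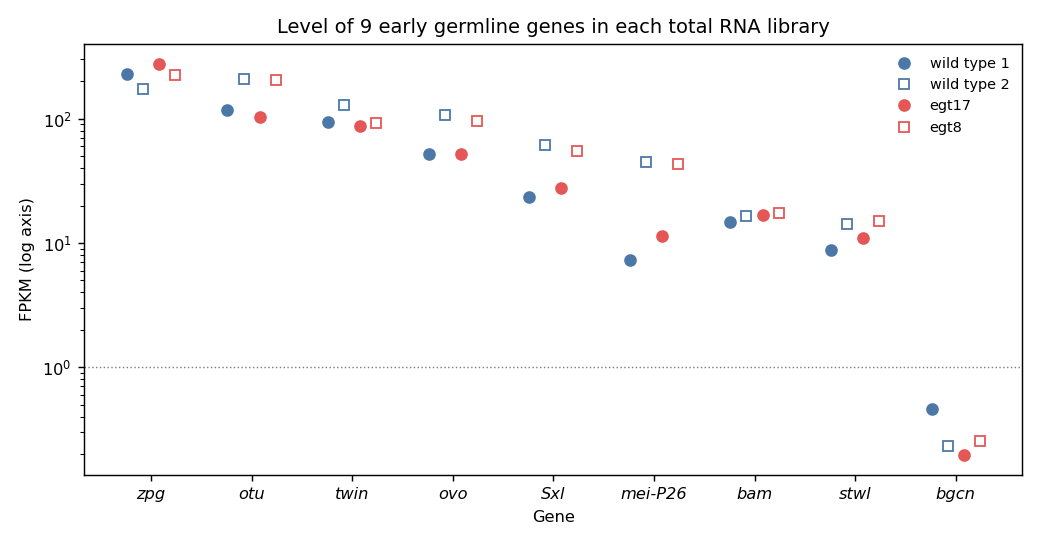
FPKM of each of the 9 genes (log axis) in each of the 4 total RNA libraries, ordered by mean wild-type level; blue is wild type, red is null, filled circles are wild type 1 and egt17, open squares wild type 2 and egt8, and the dotted line is 1 FPKM. The squares stand above the circles for mei-P26, Sxl, ovo, otu and stwl in both genotypes, and bgcn lies below 1 FPKM in every library.

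The switch gene bam (FBgn0000158) is placed on 3R between 25243039 and 25245109 by the Release 6 (dm6) annotation, the source of all positions given here. Its RNA stood at 14.7 FPKM in wild type 1, 16.6 in wild type 2, 16.8 in egt17 and 17.4 in egt8. Each null library lay above each wild-type library, by a small margin, and the pairs did not separate. The log2 difference was 0.13 ± 0.38 (SE, n = 2 against 2; limma adjusted p = 0.99992), with a 95% interval from -0.86 to 1.12. With the pair term that interval ran from -0.39 to 0.65, and without 1 library the difference was between 0.047 and 0.21. Of the 8 genes, bam alone had both nulls above both wild types, a pattern found in 9.34% of all genes tested.

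The partner gene bgcn (FBgn0004581; 2R, 23853270 to 23858921) encodes a protein related to RNA helicases that binds Bam. Its RNA was near the limit of detection, at 0.458 FPKM in wild type 1, 0.232 in wild type 2, 0.196 in egt17 and 0.257 in egt8. These values correspond to 1.20 to 4.09 reads per kilobase, and the groups overlapped. It did not pass the filter. Without the filter its log2 difference was -0.13 ± 0.11 (limma adjusted p = 1), on a scale where an added 1 FPKM outweighs the level itself. It was -0.40 with 0.1 FPKM added, and ranged from -0.25 to -0.0069 when a library was left out. The reads behind bgcn were few in every library.

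The translational regulator mei-P26 (FBgn0026206; X, 9163255 to 9189309), a TRIM-NHL protein that limits growth of differentiating cysts, varied most between libraries of 1 genotype. It stood at 7.34 FPKM in wild type 1, 44.7 in wild type 2, 11.3 in egt17 and 43.6 in egt8. The second library was 6.08 times the first within wild type and 3.85 times within the nulls, while the genotypes overlapped fully. The log2 difference between genotypes was 0.26 ± 1.04 (limma adjusted p = 0.99992). Within the pairs it was 0.56 for egt17 and -0.03 for egt8. The direction turned when a library was left out: without wild type 1 the difference was -0.96 and without egt8 -0.66. Leaving out a library unbalances the pairs between genotypes, so a pair difference enters every such value in this report. The 95% interval, from -2.43 to 2.96, narrowed to -0.31 to 0.83 with the pair term.

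The deadenylase gene twin (3R, 24196893 to 24221965) encodes CCR4, which shortens poly(A) tails of target mRNAs. Its RNA stood at 93.7 FPKM in wild type 1, 129 in wild type 2, 87.6 in egt17 and 92.3 in egt8. Both nulls were below both wild types, a pattern found in 11.6% of all genes tested, and twin was the only one of the 8 to show it; the gap between egt8 and wild type 1 was small. The log2 difference was -0.29 ± 0.33 (limma adjusted p = 0.99992), negative in both pairs at -0.10 and -0.48. It was -0.06 without wild type 2, the highest of the 4 libraries.

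The sex determination gene Sxl (X, 7074550 to 7098053) encodes an RNA-binding protein that sets female identity in the germline and acts with Bam on nanos mRNA. It stood at 23.4 FPKM in wild type 1, 61.4 in wild type 2, 27.5 in egt17 and 54.8 in egt8. The second library was 2.63 times the first within wild type and 1.99 times within the nulls, and the genotypes overlapped. The log2 difference between genotypes was 0.03 ± 0.62 (limma adjusted p = 0.99992). It was 0.23 in the first pair and -0.16 in the second, and turned to -0.65 without wild type 1 and -0.45 without egt8. With germline markers as the scale it was -0.08.

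The X-linked genes ovo (5048273 to 5070929) and otu (8485008 to 8489535) form a known regulatory step, since the zinc finger protein Ovo activates otu, whose product is a deubiquitinase. The ovo locus also makes the shavenbaby products of the epidermis, and all its transcripts are counted here together. RNA of ovo stood at 52.2 FPKM in wild type 1, 108 in wild type 2, 51.9 in egt17 and 96.0 in egt8. RNA of otu stood at 117 FPKM in wild type 1, 207 in wild type 2, 104 in egt17 and 204 in egt8. Both genes were about as high in each null as in the wild type of its own pair, with paired differences of -0.01 and -0.17 for ovo and -0.16 and -0.02 for otu. The pooled log2 differences were -0.09 ± 0.52 for ovo and -0.09 ± 0.50 for otu (limma adjusted p = 0.99992 for each). Without wild type 2 they turned to 0.43 and 0.32, and without egt17 to 0.35 and 0.39. Among the 8 genes the profiles of ovo and otu were the most alike, 0.164 apart, as the Euclidean distance between centred log2 values over the 4 libraries; 81 other genes lay closer to ovo and 59 closer to otu.

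Stonewall, the product of stwl (3L, 14402930 to 14409939), is a chromatin-associated protein needed to keep germline stem cells. Its RNA stood at 8.72 FPKM in wild type 1, 14.3 in wild type 2, 11.05 in egt17 and 15.1 in egt8. The groups overlapped, with each null above its paired wild type, by 0.31 and 0.07. The log2 difference was 0.19 ± 0.47 (limma adjusted p = 0.99992), and -0.13 without wild type 1 and -0.02 without egt8.

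The gap junction gene zpg (3L, 6604366 to 6606032) encodes innexin 4, through which germ cells couple to the surrounding somatic cells. It had the highest mean level of the 9 in both genotypes, at 228 FPKM in wild type 1, 173 in wild type 2, 278 in egt17 and 223 in egt8. Unlike the other genes with a pair difference, zpg was lower in the second pair. Each null exceeded the wild type of its pair, by 0.28 and 0.36, but egt8 lay just under wild type 1, so the groups overlapped. The log2 difference was 0.32 ± 0.34 (limma adjusted p = 0.99992), and from 0.13 to 0.52 without 1 library. With the pair term its SE was 0.13, its 95% interval ran from -0.0062 to 0.65 and its limma adjusted p was 0.386, the lowest of any of these genes in any fit run.

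**Figure D2:**
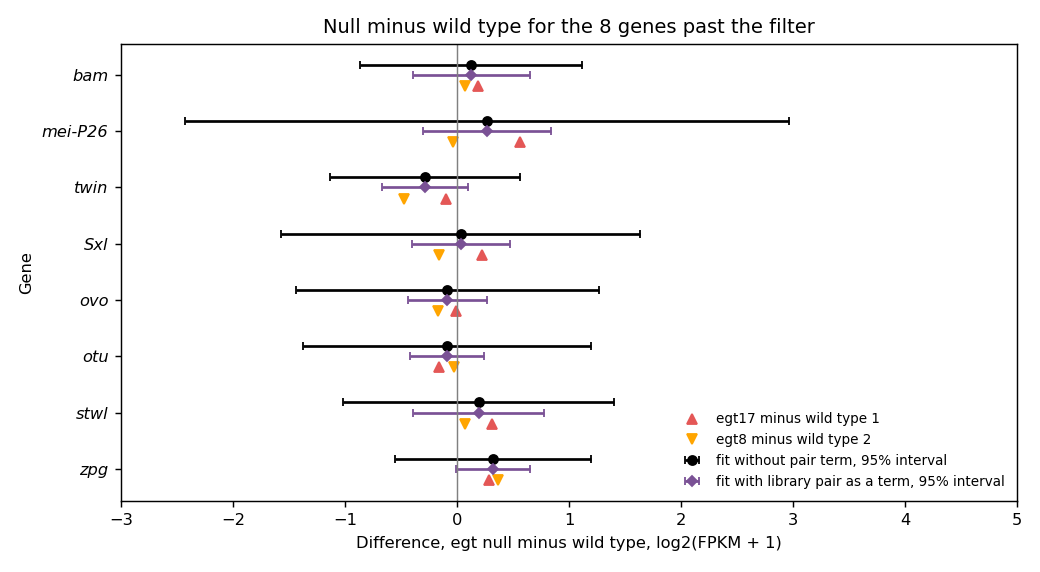
Null minus wild type on the log2(FPKM + 1) scale for the 8 genes past the filter: black circles with 95% intervals from the fit without a pair term, purple diamonds with 95% intervals from the fit with the pair as a term, and triangles for each allele against the wild type of its pair. Every interval includes 0, and the interval of mei-P26 shrinks from -2.43 to 2.96 without the term to -0.31 to 0.83 with it.

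Each allele was also set against both wild types in a fit with 3 groups. In egt17 limma called 7 of 8755 genes, or 0.08%, and in egt8 it called 8, or 0.0914%; neither count included any of the 8. The allele differences of mei-P26 were the farthest apart, at -0.66 ± 0.91 in egt17 and 1.19 ± 0.91 in egt8. Those of Sxl were -0.45 ± 0.73 and 0.52 ± 0.73, and those of otu -0.57 ± 0.66 and 0.39 ± 0.66. Each egt17 value was below 0 and each egt8 value above 0 for mei-P26, Sxl, ovo, otu and stwl, the 5 genes with the lower first pair. The alleles were much closer to each other for bam, at 0.10 and 0.15, and for twin, at -0.32 and -0.25. These comparisons share their wild-type libraries, and the spread comes from those 2 libraries alone. Each allele lies in a single pair, so allele and pair cannot be told apart in these differences. Against the wild type of its own pair, mei-P26 was 0.56 in egt17 and -0.03 in egt8. For twin those differences were -0.10 and -0.48.

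The order of levels in wild type, per length, was zpg (200.8 ± 38.7 FPKM, SD, n = 2), otu (162 ± 64.1), twin (111 ± 24.8), ovo (80.2 ± 39.6), Sxl (42.4 ± 26.9), mei-P26 (26 ± 26.4), bam (15.6 ± 1.31), stwl (11.5 ± 3.93) and bgcn (0.345 ± 0.160). The ranges of neighbours over the 2 libraries overlapped, except those of bam and stwl and of stwl and bgcn. Within each single wild-type library the order held except that otu was above zpg in wild type 2 and both bam and stwl were above mei-P26 in wild type 1. The nulls gave the same order, with zpg at 250.7 ± 38.9 FPKM, otu at 154 ± 70.5, twin at 89.9 ± 3.34, ovo at 73.9 ± 31.1 and Sxl at 41.2 ± 19.3. The lower ranks were mei-P26 at 27.5 ± 22.8 FPKM, bam at 17.1 ± 0.425, stwl at 13.1 ± 2.85 and bgcn at 0.226 ± 0.0432. The SD of bam was the smallest in proportion to its level within wild type, and that of mei-P26 exceeded its mean there.

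The pair difference had a direction in most of these genes. In 5 of the 8, mei-P26, Sxl, ovo, otu and stwl, wild type 2 and egt8 were both above wild type 1 and egt17, as in 27% of all genes tested. In 4 of the 8, all but stwl, the gap was at least 1.5-fold, as in 12.3% of all genes tested. The reverse order held for zpg and for 42.5% of all genes. The median of wild type 2 minus wild type 1 over all genes was -0.18, so the higher second-pair values of mei-P26 (2.45), Sxl (1.36), ovo (1.04) and otu (0.82) ran against that shift. What the pairs differed in was not tested.

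**Figure D3:**
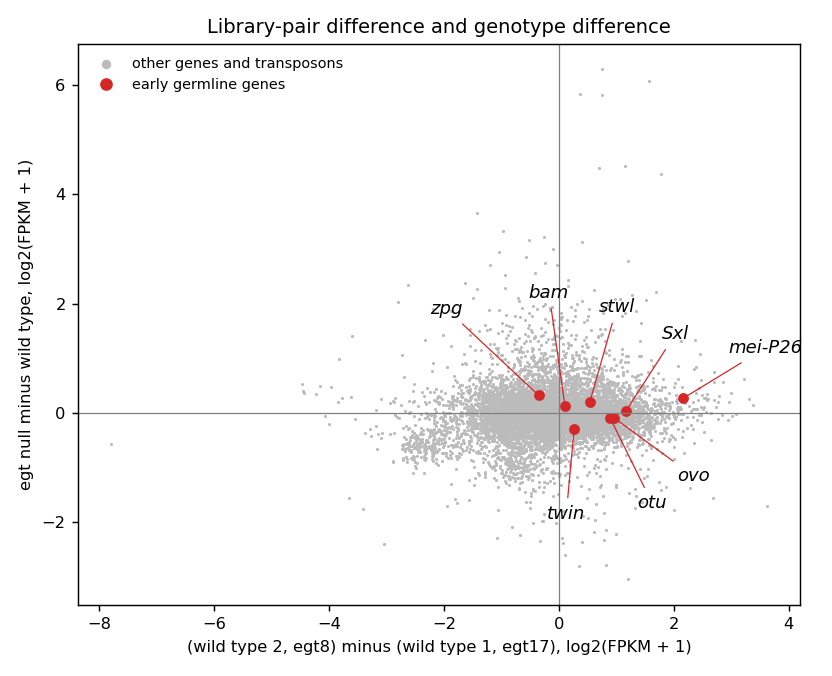
For each of 8755 genes and transposons, the difference between the library pairs (horizontal) and between genotypes (vertical), both on the log2(FPKM + 1) scale, with the 8 early germline genes in red. The red points spread along the horizontal axis, with mei-P26 farthest right, and lie between -0.29 and 0.32 on the vertical axis.

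The pair order of the sums was also seen in the separate transcripts of 5 genes. All 5 transcripts of mei-P26, 24 of Sxl, 5 of ovo, 5 of otu and 3 of stwl were higher in wild type 2 and egt8 than in wild type 1 and egt17. That order by itself makes the nulls and wild types of these transcripts overlap, so the overlap carries no information on genotype. The transcripts of ovo ran from 7.79 to 13.2 FPKM in wild type 1 and from 8.32 to 13.2 in egt17, and from 17.2 to 26.9 in wild type 2 and from 15.4 to 23.6 in egt8. No transcript of ovo or otu shifted its share of the gene by more than 0.583 percentage points between genotypes, and the largest shift in Sxl was 1.46 percentage points. Of the 6 twin transcripts, 4 had both nulls below both wild types, as did 1 of the 2 bgcn transcripts, near the limit of detection. The single bam transcript and 1 of the 2 zpg transcripts had both nulls above both wild types. The shares of all transcripts with these patterns were not computed. The transcripts share most of their sequence, the treatment of shared reads is not given in the sources used here, and so they are not independent measurements.

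**Figure D4:**
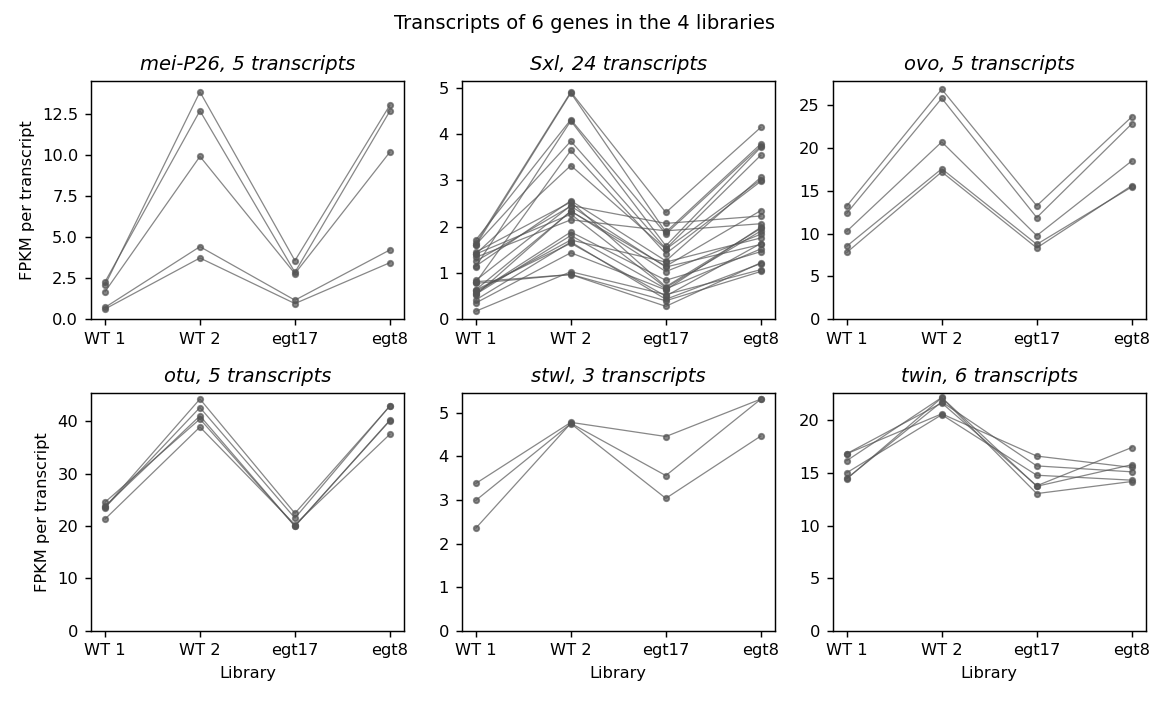
FPKM of every measured transcript (1 line each) of mei-P26, Sxl, ovo, otu, stwl and twin in wild type 1, wild type 2, egt17 and egt8. In the first 5 genes every line is higher at wild type 2 than at wild type 1 and higher at egt8 than at egt17, and the lines of twin peak at wild type 2.

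The genes whose profiles over the 4 libraries lay closest to each of the 8 were found by the same distance. For bam they were CG8230 (0.0262), Leash (0.0346) and CG42497 (0.0391). For mei-P26 they were Dyrk3 (0.109), the antisense RNA asRNA:CR45152 (0.131) and rin (0.145), and rin was measured at 76.1 and 373 FPKM in the wild types, 102 in egt17 and 401 in egt8. For Sxl they were CG31635 (0.0398), ttk (0.0754) and asRNA:CR44340 (0.0820), for ovo CenG1A (0.0422), osp (0.0441) and CG8405 (0.0463), and for otu CG10254 (0.0404), Usp47 (0.0517) and CG5953 (0.0544). For twin they were CG17078 (0.0189), oaf (0.0288) and Su(var)3-3 (0.0348), for stwl AhcyL1 (0.0502), CG31759 (0.0724) and Ptp99A (0.0767), and for zpg ND-ACP (0.0460), RpS12 (0.0605) and mRpL37 (0.0633). With 4 libraries many genes lie this close. No gene of the 9 overlapped any of the 94 piRNA clusters in the deposited cluster table; the nearest was ovo, 0.920 Mb from a cluster on X.

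Signals that act on the stem cell showed no call in either direction, like all 8755 genes and transposons tested (0% called). The 0 calls given for this list and the later ones therefore do not set them apart. Of 26 niche signalling genes (Dpp, JAK/STAT, Hedgehog and Wnt components), 18 passed the filter and 0 were called, with a median log2 difference of -0.05. The Dpp receptor gene tkv stood at 30.4 FPKM in wild type 1, 46.7 in wild type 2, 30.0 in egt17 and 47.2 in egt8, a difference of -0.0022 ± 0.43. The largest positive differences were those of dally, a proteoglycan that holds Dpp near its source (0.82 ± 0.59), and the Dpp pathway gene shn (0.62 ± 1.03). The largest negative ones were those of the JAK/STAT receptor gene dome (-0.40 ± 0.38) and the ubiquitin ligase gene Smurf (-0.38 ± 0.44). The ligands dpp and upd1 were too low for the filter, dpp at 0.690 and 0.745 FPKM in wild type, 0.579 in egt17 and 1.75 in egt8.

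Among 15 other stem cell maintenance genes 0 were called, with a median of -0.17. The stem cell translational repressor nanos stood at 279 FPKM in wild type 1, 130 in wild type 2, 163 in egt17 and 124 in egt8, a difference of -0.42 ± 0.47 that was -0.78 in the first pair and -0.06 in the second. The next most negative was that of the RNA-binding protein gene loqs (-0.32 ± 0.40), and the most positive were those of the chromatin remodeller gene dom (0.18 ± 0.74) and the ubiquitin-conjugating enzyme gene eff (0.17 ± 0.35). Of 13 differentiation partners 0 were called, with a median of -0.04. The largest negative difference there was that of tut, a Bam partner known from the male germline (-0.53 ± 0.66), and it went opposite ways in the pairs, -1.52 and 0.45. The largest positive one was that of the translational regulator orb (0.42 ± 0.72). Of 11 Sxl splicing and m6A factors 0 were called, with a median of -0.14, from -0.31 ± 0.62 for the methyltransferase gene Mettl14 to 0.36 ± 0.40 for tra2.

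The partners of twin in the CCR4-NOT deadenylase complex, its recruiters and the genes PAN2 and PAN3 (15 tested together) had 0 calls and a median of -0.10. The scaffold gene Not1 stood at 26.4 FPKM in wild type 1, 114 in wild type 2, 28.2 in egt17 and 109 in egt8, a difference of 0.01 ± 0.95, with the pair order seen in mei-P26. Of 20 fusome and cyst division genes 0 were called, with a median of -0.16. The cyclin gene CycE (-0.52 ± 0.30) and hts, which encodes the fusome adducin (-0.51 ± 0.47), had the most negative differences; hts stood at 79.9 and 94.3 FPKM in wild type, 40.7 in egt17 and 90.5 in egt8, and so was low in egt17 alone. Of 14 maternal mRNAs made later in oogenesis 0 were called, with a median of -0.19, from exu (-0.69 ± 0.36) to grk (0.58 ± 0.50). The sign of most of these medians turned when a library was left out, which unbalances the pairs. Without 1 library they ranged from -0.31 to 0.16 for niche signalling, from -0.36 to 0.21 for stem cell maintenance and from -0.60 to 0.74 for differentiation partners. The range was -0.23 to 0.06 for Sxl splicing and m6A factors, -0.43 to 0.22 for CCR4-NOT and -0.37 to 0.08 for fusome genes. For maternal mRNAs it stayed below 0, from -0.33 to -0.07.

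The innexin list, the family of zpg, had 4 of 7 members past the filter, and limma called 0 of them. All 4 had both nulls above both wild types, as 9.34% of all genes tested did, and their median difference was 0.79 (0.53 to 1.05 without 1 library). Inx7 stood at 3.39 FPKM in wild type 1, 1.92 in wild type 2, 11.7 in egt17 and 8.30 in egt8, a difference of 1.61 ± 0.49. Inx3 stood at 12.5, 14.1, 22.9 and 29.5 FPKM in the same order, a difference of 0.92 ± 0.39. The differences of ogre and Inx2, known from somatic follicle cells, were 0.66 ± 0.45 and 0.27 ± 0.30. The other 3 members stayed under 0.4 FPKM in every library, Inx6 at 0 in all. Follicle cell markers also had mostly positive differences, 8 of the 9 tested, with a median of 0.36 (-0.27 to 0.99 without 1 library) and 0 calls. Fas3, a follicle cell adhesion gene, stood at 7.47 FPKM in wild type 1, 10.3 in wild type 2, 13.3 in egt17 and 15.2 in egt8. The summed level of all 10 markers, most of it from the yolk protein genes Yp1, Yp2 and Yp3, was 4581 and 3247 FPKM in wild type, 2904 in egt17 and 5920 in egt8. That of 10 muscle markers was 230.5 and 55.7 in wild type, 74.7 in egt17 and 449 in egt8; their part in the innexin values was not tested.

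Male germline genes, which germ cells lacking Sxl function are known to express, stayed mostly near 0 FPKM. Of 24 listed genes 7 passed the filter and 0 were called. Their median log2 difference was 0.35, with 4 positive and 3 negative, and ranged from -0.18 to 0.24 without 1 library. Phf7, a male-promoting chromatin reader that Sxl is known to hold down, stood at 44.8 FPKM in wild type 1, 49.2 in wild type 2, 45.4 in egt17 and 31.4 in egt8. The largest positive difference was that of tomb, a testis meiotic arrest gene, at 0.189 and 0.144 FPKM in the wild types, 2.72 in egt17 and 1.65 in egt8 (1.43 ± 0.44); it passed the filter through the nulls alone. The protamine genes ProtA and ProtB and the regulator comr were at 0 in all 4 libraries. After tomb, mia had the largest positive difference (0.83 ± 0.46), at 1.59 and 2.05 FPKM in the wild types, 3.16 in egt17 and 4.98 in egt8. The largest negative difference was that of Taf12L (-0.73 ± 0.59).

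**Figure D5:**
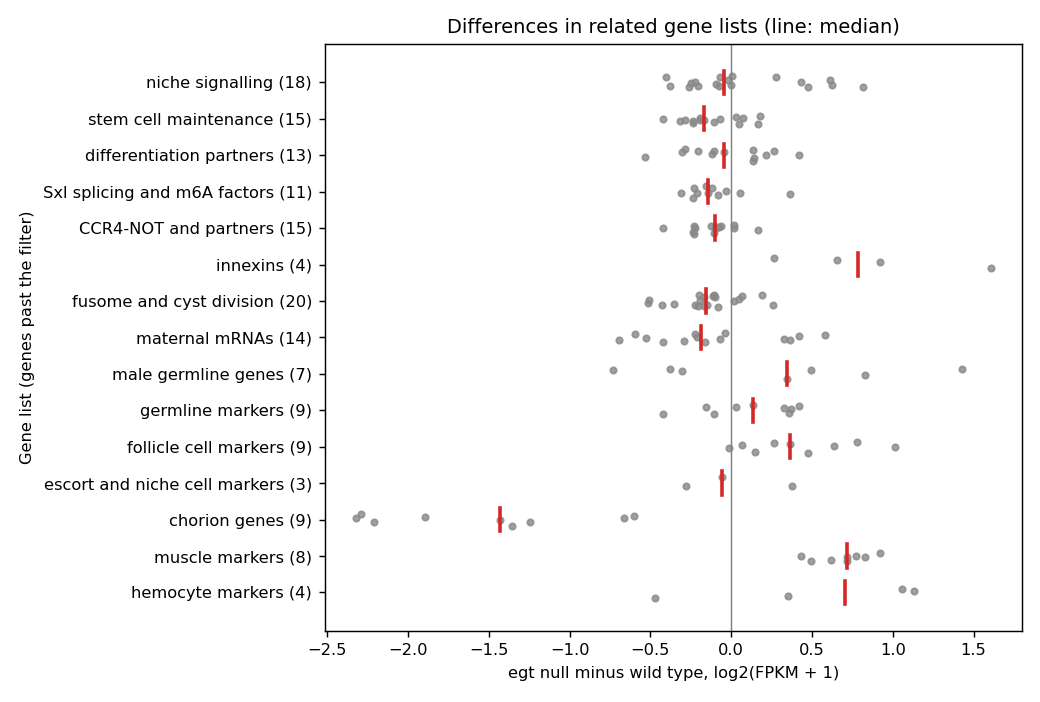
Null minus wild type on the log2(FPKM + 1) scale for the genes past the filter in each related list (points) with the list median (red line); the number past the filter is in parentheses. The lists of stem cell, niche, partner and fusome genes have medians between -0.17 and -0.04, the innexins 0.79 and the chorion genes -1.43.

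Summed markers of several cell types differed between libraries. Germline markers had a median difference of 0.13 (9 tested, 0 called; -0.17 to 0.44 without 1 library), with a summed level of 851 and 1250 FPKM in wild type, 903 in egt17 and 1353 in egt8. The sum was higher in the second pair, as were osk (305 FPKM in wild type 1, 673 in wild type 2, 432 in egt17 and 749 in egt8) and orb, while nanos and vret had the reverse pair order. Of 11 escort and niche cell markers 3 passed the filter, and the defining ones were near 0, en at 0.066 FPKM or less and hh at 0.265 FPKM or less in every library. Chorion genes of late egg chambers summed to 27618 and 20194 FPKM in wild type, 4438 in egt17 and 10718 in egt8, with a median of -1.43. Hemocyte markers summed to 80.6 and 71.4 FPKM in wild type, 83.3 in egt17 and 217 in egt8. Of the egt8 sum, Col4a1 gave 108 FPKM and vkg 85.0 FPKM. Of 8 hemocyte markers 4 passed the filter, 3 with positive differences and srp with a negative one (-0.47 ± 0.96). The part of all these cell types in the values of the 9 genes was not tested.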

How the data were processed

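Total RNA of 4 ovary libraries was analysed. Bowtie2 2.2.4 and the build dm6 are named, without a role, per the submitters' processing notes; for the counting tool, shared reads and strand, nothing was given in the sources used here. The table deposited by the authors holds FPKM plus 1 in 35502 rows, each library's lowest value being 1, so 1 was subtracted. Of 35327 transcript rows, 32988 matched a gene of the RefSeq Release 6 annotation, and transcripts were summed by gene. Genes with at least 1 FPKM in at least 2 libraries were tested with limma 3.58.1 (R 4.3.3) on log2(FPKM + 1), two-sided, with a mean-variance trend and Benjamini-Hochberg adjustment over all 8755 genes. The 2 alleles were the replicates of the null genotype, with 2 residual degrees of freedom, or 1 with the pair term or for a single allele. This code was tested on simulated data with large changes, independent noise and no difference between library pairs. That test does not cover the pair structure seen here. The library pairs, egt17 with wild type 1 and egt8 with wild type 2, come from depth and from the deviations from the group means, which correlated at 0.763, not from the labels.

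Members, lists and tests were chosen with earlier results of these data known. Named genes were the 9 members and the 3 genes closest in profile to each member. From each list up to 2 of the largest differences in each direction were named. Chorion, muscle and hemocyte markers are given as sums, with Col4a1, vkg and srp also named. The genes tkv, dpp, upd1, vas, osk, Fas3, Yp2, comr, ProtA, ProtB, Inx5, Inx6, shakB, en and hh were added after their values were seen. So were Col4a1, vkg and srp. Older symbols were matched for nanos, Taf12L, ProtA, ProtB and Lmx1a; upd2 had no matched row. Python 3.11.15, numpy 2.4.6, pandas 2.3.3 and matplotlib 3.10.9 were used.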

Additional observations from a re-analysis of the deposited data

Results flagged for a closer look

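Among the 8 genes past the filter, the 2 alleles differed in direction against the wild type of their own pair for 2, and these differences were not tested, since each pair holds 1 library of each genotype. For mei-P26 the log2 difference was 0.56 in egt17 and -0.033 in egt8. For Sxl it was 0.23 in egt17 and -0.16 in egt8.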

How the results depend on the processing

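No early germline gene passed the threshold in any of 105 values under other settings, which covered the pseudocount, filter, trend, scaling, choice of transcript, pair term and leaving out a library; 94 kept their direction and 11 turned, 10 of these on leaving out a library. Without 1 library the log2 difference ranged from -0.96 to 1.49 for mei-P26, from -0.65 to 0.71 for Sxl, from -0.61 to 0.43 for ovo, from -0.57 to 0.39 for otu and from -0.13 to 0.52 for stwl, and the median of the 9 from -0.51 to 0.35. With a library left out the pairs are unbalanced, so these ranges carry the pair difference as well. Sxl was -0.0755 on scaling to germline markers, which moved the median over all genes to -0.17. The number of genes called, null against wild type, was 0 except for 13 with the library pair as a term (replicate block) and 7 to 12 without 1 library, where a lone sample is assumed to vary like the other group. For egt17 limma called 3 at a pseudocount of 0.1, 315 with no filter, 4 at an FPKM of at least 5 and 3 with median-of-ratios scaling. For egt8 it called 1188 with no filter, where genes with equal values in both wild types had no spread. Of 195 list medians, 14 moved by more than the spread between alleles. The single-allele fits were not run with the pair term, which leaves no degree of freedom. Of the 9 genes, bgcn had the fewest reads per kilobase in every library.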
